A study of Mus musculus with 18 samples.

Results

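A set of 10 genes that are widely used as readouts of YAP and TAZ, other than the CCN family and the angiomotins, was followed in stromal and lymphatic cells of the mouse small intestine. The genes (Crim1, Axl, F3, Nt5e, Fjx1, Ajuba, Ptpn14, Nuak2, Myof and Ankrd1) were picked from a list of symbols, with earlier results of these data known and with no threshold on their values, and all 10 were found among the 23238 gene symbols of the count tables. RNA of sorted cells from adult C57BL/6J mice was measured in 18 libraries by QuantSeq, whose reads start near the 3′ end of transcripts, so that a count follows the number of transcripts and little of their length. Intestinal stromal cells (IntSCs) were sorted as PDGFRb-positive cells that carry the tdTomato reporter, after beads had removed leukocytes, epithelium and endothelium, and lymphatic endothelial cells (LECs) were sorted with antibodies to CD31 and podoplanin. The WT libraries (6 of IntSCs and 4 of LECs) came from mice labelled PDGFRb+-CreERT2-Tomato+, and the KO libraries (5 of IntSCs and 3 of LECs) from mice that also carried Lats1f/f and Lats2 f/f alleles. All groups therefore carry the tamoxifen-inducible Cre and the reporter. The Cre is driven by Pdgfrb and is meant to act in the stroma, so the LECs of KO mice are cells in which Lats1 and Lats2 were not targeted. The labels do not say which libraries came from separate mice, and p-values therefore measure only the spread between these samples.

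Lats1 and Lats2 are the last kinases of the Hippo cascade. They phosphorylate YAP and TAZ, which are then held in the cytoplasm or degraded. When the kinases are inactive, YAP and TAZ enter the nucleus and bind DNA mainly through TEAD factors, often beside AP-1. Their targets include proteins that feed back on the pathway (Ajuba, Ptpn14, Nuak2) and others that act at the cell surface (Crim1, Axl, F3, Nt5e), so they are read as a measure of YAP/TAZ activity in stroma and endothelium.

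The TEAD core motif GGAATG is the sequence through which these factors bind, and the 30 bases around each match in the promoters are shown here. Binding at these matches was not tested. RefSeq promoters of GRCm38.p6 (the same assembly as mm10, from 250 bases before to 50 bases after the start) were held for 8 of the 10 members; those of Fjx1 and Nuak2 were not analysed here. Capitals mark the motif, read 5′ to 3′ on the strand of the gene, with CATTCC being GGAATG on the other strand.
Crim1, 79 bases before the start, chr17:78200157-78200186, + strand: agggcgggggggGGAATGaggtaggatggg
Axl, 233 bases before the start, chr7:25788949-25788978, - strand: ggaaattctacaGGAATGtttaccagaccc
Ajuba, 186 bases before the start, chr14:54577830-54577859, - strand: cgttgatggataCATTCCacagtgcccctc
Ajuba, 164 bases before the start, chr14:54577808-54577837, - strand: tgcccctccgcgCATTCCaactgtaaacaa
Ptpn14, 146 bases before the start, chr1:189728110-189728139, + strand: cctccccggacgCATTCCtggcccgcccag
Ankrd1, 210 bases before the start, chr19:36120037-36120066, - strand: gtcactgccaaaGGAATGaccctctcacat
Ankrd1, 123 bases before the start, chr19:36119950-36119979, - strand: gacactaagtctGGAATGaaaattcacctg
The AP-1 motif TGANTCA was found in F3 alone among these 8 promoters, with 2 matches that lie close together, in capitals.
F3, first match 146 bases before the start, chr3:121723385-121723414, + strand: cgctgtTGAATCAcggtTGAGTCAcccctt
GGAATG on either strand was thus present in 5 of 8 member promoters, and in 14.7% of all 32851 promoters of the same length. TGANTCA, whose match reads alike on both strands, was present in 1 of 8, and in 7.81% of all promoters. The 2 motifs share no bases in these windows. The promoters of Nt5e and Myof held neither motif. A match describes these letters only.

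Total counts ran from 5361250 to 10549233 per library, so that 3 reads, taken as the limit that a count of 0 allows, correspond to between 0.284 and 0.560 CPM (reads of a gene scaled to equal library size). CPM here are scaled with TMM factors over all 18 libraries. The limits from 3 reads and the counting intervals of read ratios cover counting error only. The confidence intervals of fitted fold changes also include the spread between libraries. The labelled cell types were borne out by their markers, since Prox1 (the transcription factor that sets lymphatic identity) was at most 0.172 CPM in the 11 IntSC libraries and at least 33.3 CPM in the 7 LEC libraries. The deleted genes gave no check of the KO label. Lats1 averaged 17.5 ± 10.3 CPM (SD, n = 6) in WT IntSCs and 16.05 ± 3.28 (n = 5) in KO IntSCs, and Lats2 averaged 72.9 ± 23.7 and 114 ± 20.3 CPM. Reads from the 3′ end need not lose signal when inner exons are removed, so "KO" below means the libraries labelled KO. A single WT LEC library stood apart. Its summed level of 9 stromal markers was 2419 CPM against 1005 to 1216 CPM in the other 3 WT LEC libraries, and it is called WT LEC 1. These sums include Thy1, which was at 333 CPM in WT LEC 1 and at 324 to 585 CPM over the 4 WT LEC libraries.

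**Figure D1:**
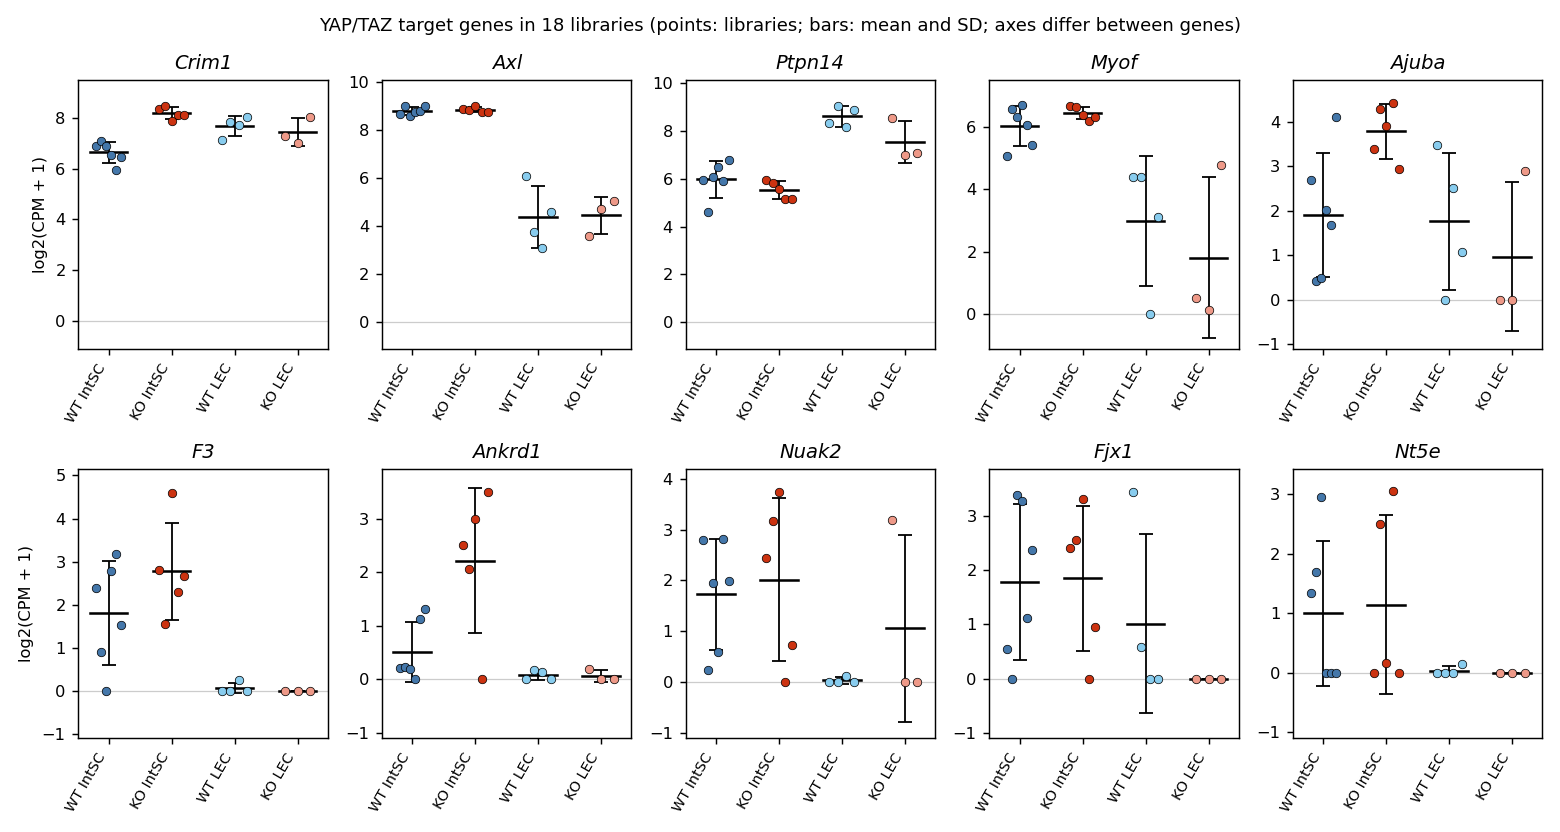
Level of each of the 10 genes in every library, as log2(CPM + 1) on the y axis, by group on the x axis; points are libraries, the horizontal line is the group mean and the bar its SD, and the axes differ between genes. The 5 KO IntSC points of Crim1 lie above all 6 WT IntSC points, while F3, Ankrd1, Nuak2, Fjx1 and Nt5e have libraries at or near 0 in every LEC group.

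The first comparison asked which of these genes differed between IntSCs of KO and of WT mice, where the kinases that restrain YAP/TAZ were targeted. Crim1 rose and no other member passed the test. Crim1 is a transmembrane protein with cysteine-rich repeats that binds bone morphogenetic proteins and holds back their processing and delivery. It lies at chr17:78200233-78376592 (GRCm38.p6, + strand). Its levels in WT IntSCs were 119, 135, 119, 92.5, 60.4 and 87.3 CPM, and in KO IntSCs they were 324, 359, 237, 277 and 275 CPM. The groups did not overlap, and the lowest KO library was 237 CPM against a highest WT library of 135 CPM. In the edgeR quasi-likelihood test over 12421 genes Crim1 was 2.88-fold higher (log2 fold change 1.52 ± 0.21 SE, 95% interval 1.10 to 1.95, adjusted p = 2.84e-04). Over all genes tested, 0.853% were called higher in KO IntSCs. In 1.63% of the genes every KO library lay above every WT library, and Crim1 was the member that did so; in 1.2% every KO library lay below, and no member did. A bulk library cannot tell more Crim1 per cell from a larger share of cells that express it.

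Markers of other cell types and of the stroma were measured in the same libraries. The LEC marker list (6 genes, all detected) summed to 13.2 to 87.8 CPM in WT and 14.8 to 74.2 CPM in KO IntSCs, against 7912 to 14120 CPM in LECs, so LEC transcripts were close to absent from both IntSC groups. The endothelial pair Cdh5 and Pecam1, both detected in each group, summed to 12.5 to 82.4 CPM in WT and 62.4 to 156 CPM in KO IntSCs, against 557 to 1025 CPM in LECs. Pecam1 was 2.34-fold higher in KO IntSCs (unadjusted p = 0.00225 and adjusted p = 0.101 by edgeR). The 7 blood endothelial markers, all detected, summed to 172 to 352 CPM in WT and 222 to 567.5 CPM in KO IntSCs. The 9 stromal markers, all detected, summed to a median of 13834 CPM (11054 to 16966) in WT and 10426 CPM (7588 to 12646) in KO IntSCs. Krt19, a keratin of epithelium, had no read in the 6 WT libraries and 16 to 278 reads in the 5 KO libraries, while the 7 epithelial markers, with Krt20 at 0 in WT, summed to 0.516 to 114 CPM in WT and 18.8 to 109 CPM in KO IntSCs. The Paneth cell list (5 genes, with Mmp7 at 0 in WT IntSCs) summed to 0.168 to 31.6 CPM in WT and 82.5 to 156 CPM in KO IntSCs, and the part of any of these lists in the Crim1 difference was not tested. Pdgfrb, the gene that the sort and the Cre rest on, averaged 485 ± 164 CPM in WT and 879 ± 187 CPM in KO IntSCs (adjusted p = 0.0613 by edgeR, not called). The 3′ part of Crim1 overlaps Fez2, a gene on the other strand at chr17:78369212-78418152, and whether the counting used strand is not given in the sources used here. Fez2 ranged from 19.96 to 60.3 CPM in WT and from 33.9 to 59.4 CPM in KO IntSCs, and its groups overlapped.

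Axl, a receptor tyrosine kinase whose ligand is Gas6, was among the most evenly measured members in IntSCs. It read 403, 512, 382, 430, 442 and 502 CPM in WT and 465, 455, 503, 429 and 422 CPM in KO IntSCs. The KO range lay wholly inside the WT range. Its log2 fold change of 0.03 ± 0.15 (95% interval -0.28 to 0.35, adjusted p = 0.986 by edgeR) allows at most a 1.27-fold rise. The 2 groups had coefficients of variation of 11.8% and 7.10%. For the ligand Gas6 the means were 883 ± 377 CPM in WT and 2304 ± 718 CPM in KO IntSCs, with a log2 fold change of 1.39 ± 0.37 that did not pass the test (adjusted p = 0.0990 by edgeR).

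F3, the tissue factor that starts the extrinsic coagulation cascade, was sparse. It read 4.26, 0.861, 0, 5.90, 7.98 and 1.90 CPM in WT and 6.02, 1.92, 23.2, 3.88 and 5.32 CPM in KO IntSCs. A single KO library with 193 reads lay far above the rest, and the other 4 KO libraries fell within the WT range (log2 fold change 1.21 ± 1.05, adjusted p = 0.836 by edgeR). Without that library the value was 0.30.

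Nt5e, also known as CD73, makes adenosine from AMP outside the cell. It had no read in 3 of 6 WT and in 2 of 5 KO IntSC libraries, yet 50 reads in 1 WT library and 49 in 1 KO library. Its levels ran from 0 to 6.78 CPM in WT and from 0 to 7.31 CPM in KO IntSCs, and the groups overlapped fully (log2 fold change 0.46 ± 1.64, adjusted p = 0.981 by edgeR). Fjx1 is the relative of fly four-jointed, a kinase of the Golgi that acts on Fat and Dachsous cadherins. It ran from 0 to 9.49 CPM in WT and from 0 to 9.02 CPM in KO IntSCs (log2 fold change -0.07 ± 1.29, adjusted p = 0.996 by edgeR). For both genes the 95% interval spans more than 5 log2 units, from -2.96 to 3.88 for Nt5e and from -2.75 to 2.61 for Fjx1, so these libraries set almost no limit on a change.

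The members that act on the Hippo pathway itself did not pass the test in IntSCs. Ajuba is a LIM-domain protein that binds LATS kinases and keeps them from YAP. It read 5.48, 0.344, 0.407, 3.03, 2.22 and 16.2 CPM in WT and 9.42, 18.4, 13.9, 20.3 and 6.65 CPM in KO IntSCs. All 5 KO libraries exceeded 5 of the 6 WT libraries, and the sixth WT library, at 16.2 CPM, lay above 3 of the KO libraries. Its log2 fold change was 1.58 ± 0.84 (95% interval -0.18 to 3.33, adjusted p = 0.586 by edgeR). It was 2.59 without that sixth WT library, and still not called.

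Ptpn14 is a tyrosine phosphatase that binds YAP and holds it in the cytoplasm. Its levels were 61.2, 23.1, 67.0, 88.6, 58.5 and 108 CPM in WT and 60.1, 55.9, 46.1, 34.6 and 34.96 CPM in KO IntSCs. Every KO library fell within the WT range, toward its lower end. The log2 fold change was -0.55 ± 0.31 (95% interval -1.20 to 0.10, adjusted p = 0.623 by edgeR), and its sign was opposite to that of Crim1. Nuak2, a kinase of the AMPK family that favours YAP activity, read 5.94, 0.172, 2.85, 0.505, 6.01 and 2.95 CPM in WT and 4.45, 7.95, 12.4, 0 and 0.665 CPM in KO IntSCs. Both groups held libraries near 0 (log2 fold change 0.73 ± 1.21, adjusted p = 0.945 by edgeR).

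Myof belongs to the ferlins, which work in membrane fusion and repair. It read 32.4, 94.0, 77.5, 102, 65.9 and 42.0 CPM in WT and 101, 97.1, 82.1, 71.8 and 78.8 CPM in KO IntSCs, and every KO library fell within the WT range. Myof had a log2 fold change of 0.32 ± 0.27 (95% interval -0.24 to 0.88, adjusted p = 0.829 by edgeR). Its coefficient of variation was 40.4% in WT and 14.3% in KO IntSCs.

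Ankrd1 is an ankyrin-repeat protein of muscle and other cells under load, found in the nucleus and at the sarcomere. It had too few reads for the filter and was not fitted with the other genes. It was at 0.152, 0.172, 0.136, 0, 1.18 and 1.48 CPM in WT and at 4.71, 3.15, 6.97, 0 and 10.4 CPM in KO IntSCs. The 4 KO libraries with reads, 23 to 78 each, exceeded all 6 WT libraries, of which the highest had 9 reads. The library KO IntSC 4 had no read of Ankrd1, nor of Fjx1 or Nuak2. The difference in mean log2(CPM + 1) was 1.71 in favour of KO (two-sided exact permutation test over 462 splits, unadjusted p = 0.0368, n = 6 and 5, where the smallest p possible is 0.00433). It was 1 of 6 such tests. In an edgeR fit of all genes without the filter, the log2 fold change was 3.23 ± 1.51 with an adjusted p of 0.305, so the gene is not called. Leaving out 1 library at a time gave exact permutation p-values from 0.00476, without KO IntSC 4, to 0.0619, and 3 of these 11 stayed under 0.05.

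Of the 9 members fitted in IntSCs, 1 was called higher, against 0.853% of all genes tested, and 0 lower. Their median log2 fold change was 0.46, against 0.0026 over all 12421 genes, and 7 of the 9 values were above 0, as were 50.2% of all values.

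**Figure D2:**
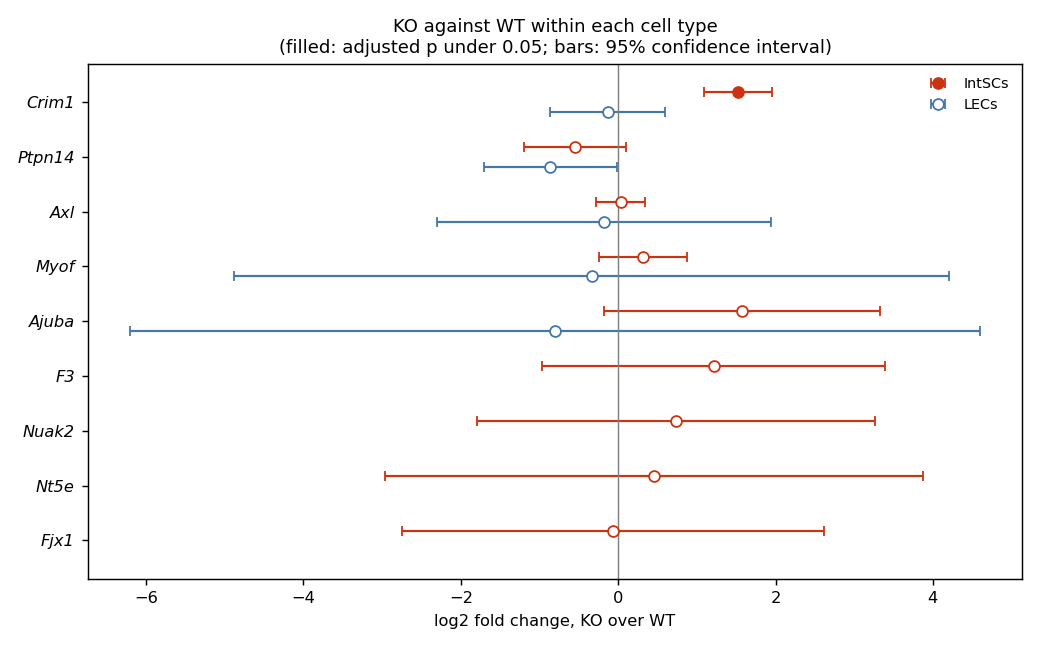
Log2 fold change of KO over WT (x axis) for each fitted member (y axis), in IntSCs in red and in LECs in blue, with 95% confidence intervals; filled points have an adjusted p under 0.05. Crim1 in IntSCs, at 1.52, is the one filled point, and the intervals of the sparse genes reach several log2 units on both sides of 0.

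The second comparison asked whether the same genes differed in the LECs of these mice, cells that the Cre does not target. No member was called in LECs by edgeR, DESeq2 or limma-voom, where edgeR called 0.0658% of the 10639 genes tested in either direction. An unadjusted p under 0.05 by edgeR was seen for 1 of the 5 fitted members (Ptpn14) and for 837 of the 10639 genes tested. The filter on low counts was passed by 5 members (Crim1, Axl, Ajuba, Ptpn14 and Myof). Their median log2 fold change was -0.34 against -0.03 over all genes tested, and all 5 values were below 0, although leaving out 1 library turned the sign for Crim1, Axl and Myof. Over all genes, 48.3% of the values were above 0. In the same libraries the 9 stromal markers, all detected, summed to 1005 to 2419 CPM in WT and 678 to 786 CPM in KO LECs, with all 9 fold changes below 0 (median -1.20 on the log2 scale) and none called by edgeR, where 3 had an unadjusted p under 0.05. The list holds Thy1, which was higher in LECs than in IntSCs. It averaged 442 CPM in WT and 304 CPM in KO LECs. In WT and KO IntSCs it averaged 2.39 and 4.66 CPM. Col3a1 had -3.01 ± 0.59 (adjusted p = 0.0879 by edgeR). The 5 Paneth cell markers, with Mmp7 at 0 in WT, summed to 0.600 to 21.1 CPM in WT and 35.1 to 318 CPM in KO LECs. The part of either list in the member values was not tested. No member had KO and WT LEC libraries apart, while every KO library lay above in 3.48% and below in 6.45% of all genes tested.

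Crim1 read 140, 228, 211 and 265 CPM in WT and 155, 128 and 265 CPM in KO LECs. The 2 groups overlapped, and their highest libraries were alike. The log2 fold change was -0.13 ± 0.34 (95% interval -0.86 to 0.60, adjusted p = 0.9999 by edgeR). The genotype difference of Crim1 was tested between the 2 cell types directly. It was larger in IntSCs by 1.73 ± 0.39 log2 units (95% interval 0.93 to 2.54, adjusted p = 0.0201 by edgeR over 14015 genes), and 1.42% of all genes were called in that direction. Crim1 was the single member called in this interaction with all libraries, and without KO LEC 3 Myof was called too (5.82, adjusted p = 0.0478 by edgeR).

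Ptpn14 read 319, 526.4, 285 and 470 CPM in WT and 374, 124 and 135 CPM in KO LECs. The highest KO library lay among the WT libraries and the other 2 lay below all of them. For Ptpn14 this gave a log2 fold change of -0.86 ± 0.39 (95% interval -1.70 to -0.02, unadjusted p = 0.0455 and adjusted p = 0.618 by edgeR), and the gene is not called. It was -1.54 without KO LEC 1 and -0.59 without KO LEC 2.

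Axl in LECs was 66.4, 12.6, 7.51 and 22.8 CPM in WT and 11.04, 25.0 and 32.2 CPM in KO. The highest of the WT values came from WT LEC 1, the library with the highest stromal marker sum. The log2 fold change was -0.19 ± 0.99 with this library and 0.75 without it, and the gene was called in neither. The part of stromal transcripts in Axl reads of LECs was not tested. Ajuba and Myof were likewise uneven, with Ajuba from 0 to 10.2 CPM in WT and 0 to 6.46 CPM in KO LECs, and Myof from 0 to 20.1 CPM in WT and 0.103 to 26.3 CPM in KO LECs. Without KO LEC 3, the one KO library with reads of Ajuba, the log2 fold change of Ajuba went from -0.80 to -8.20, not called. Of the 4 WT LEC libraries, WT LEC 1 had the highest level of Ajuba and Fjx1 as well, while Myof was at 20.09 CPM in WT LEC 1 and 20.01 CPM in WT LEC 2.

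The other 5 members could not be fitted in LECs. Ankrd1 had 2 reads over the 4 WT and 1 over the 3 KO LEC libraries, F3 had 2 and 0, and Nt5e had 1 and 0. Fjx1 had 105 reads in WT LEC 1, 4 in 1 other library and 0 in the remaining 5. Nuak2 had 58 reads in 1 KO library and 1 read in all the others together. None of their genotype differences had a small p (two-sided exact permutation tests over 35 splits, p = 0.429 for Fjx1 and Nuak2 and p = 1 for Ankrd1, F3 and Nt5e, n = 4 and 3), and this design cannot give a p under 0.0571.

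The third comparison set LECs against IntSCs within each genotype, and 4 of 8 fitted members were called in WT and 4 of 9 in KO. The 2 comparisons use different libraries. Axl and Ptpn14 were called in both, in opposite directions. Axl was 16.2-fold lower in WT LECs than in WT IntSCs (log2 fold change -4.02 ± 0.53, adjusted p = 6.62e-05 by edgeR) and 20.01-fold lower in KO LECs than in KO IntSCs (-4.32 ± 0.36, adjusted p = 2.19e-05 by edgeR). All 7 LEC libraries, at 7.51 to 66.4 CPM, lay below all 11 IntSC libraries, at 382 to 512 CPM. Without WT LEC 1 the WT value was -4.95.

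Ptpn14, which is known for restraining VEGFR3 in lymphatic endothelium, was 5.91-fold higher in WT LECs (log2 fold change 2.56 ± 0.34, adjusted p = 4.37e-05 by edgeR) and 4.54-fold higher in KO LECs (2.18 ± 0.39, adjusted p = 0.00250 by edgeR). All LEC libraries, at 124 to 526.4 CPM, lay above all IntSC libraries, at 23.1 to 108 CPM. An antisense gene, Gm26574, and a pseudogene, Gm30280, lie within introns of Ptpn14, at chr1:189728216-189876695.

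Crim1 was 2.07-fold higher in WT LECs than in WT IntSCs (log2 fold change 1.05 ± 0.26, adjusted p = 0.00888 by edgeR), with the lowest LEC library at 140 CPM and the highest IntSC library at 135 CPM. In the KO libraries the sign turned, to -0.69 ± 0.27, and the difference was not called (adjusted p = 0.0859 by edgeR), although it was by limma-voom (-0.76, adjusted p = 0.0373) and without KO LEC 3 (-1.06, adjusted p = 0.0126 by edgeR). The order of its group means was thus WT IntSC at 102 CPM, KO LEC at 183, WT LEC at 211 and KO IntSC at 295. No neighbours in this order were apart beyond their spread, since WT IntSC and KO LEC libraries overlapped, KO and WT LEC libraries overlapped, and WT LEC libraries (140 to 265 CPM) overlapped with KO IntSC libraries (237 to 359 CPM).

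Nuak2 and F3 were near the limit of detection in LECs. In WT, 124 reads of Nuak2 in IntSCs stood against 1 read in LECs, a ratio of 128 in CPM with an exact counting interval of 22.5 to 5089 (log2 fold change -6.24 ± 1.90, adjusted p = 0.0270 by edgeR). The call was lost without WT LEC 1, 2 or 4 (adjusted p = 0.0678, 0.0623 and 0.0770 by edgeR). With 1 library left out, Nuak2 passed the filter in 6 cases, and the call held in 3 of them. In the remaining cases it was not fitted. In KO, the library with 58 reads brought the log2 fold change to -0.91 ± 2.10, which was not called, and without that library it was -8.33 (adjusted p = 0.0845 by edgeR). For F3, 138 reads in WT IntSCs stood against 2 in WT LECs, a ratio of 71.1 with a counting interval of 19.3 to 593 (adjusted p = 0.0530 by edgeR, not called). It was called by DESeq2 (0.00963), by limma-voom (0.0469), with upper-quartile factors (0.04997), with all 4 groups in 1 fit (0.0352) and without WT IntSC 2 (0.0496) or 3 (0.0300). In KO, 319 reads, 193 of them in KO IntSC 3, stood against 0 (adjusted p = 0.0133 by edgeR). Taking 3 reads over the group as the limit, F3 was at least 70.6-fold lower in LECs. That limit covers counting error alone and not the spread between libraries.

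Fjx1 was called in the KO libraries, where 151 reads in IntSCs stood against 0 in LECs, at least 33.4-fold lower by the same counting limit (adjusted p = 0.0471 by edgeR). In WT it was not called (-0.60 ± 1.81, adjusted p = 0.871 by edgeR), with WT LEC 1 holding 105 of the 109 LEC reads, and without that library it was -4.52 (adjusted p = 0.190 by edgeR). The KO call was lost without any 1 of the 3 KO LEC libraries (adjusted p = 0.0892 to 0.0896 by edgeR) and without KO IntSC 5 (0.0650 by edgeR). With 1 library left out, Fjx1 passed the filter in 5 cases, and the call held in 1 of them. In the remaining cases it was not fitted. Ankrd1 had 195 reads in KO IntSCs and 1 in KO LECs, a ratio of 129 with a counting interval of 23.0 to 5141 (adjusted p = 0.0540 by edgeR), and it was called by DESeq2 (0.00401), by limma-voom (0.0475) and without KO IntSC 4 (0.0144 by edgeR). In WT the reads were 19 and 2.

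Myof was not called in either genotype, at -2.53 ± 0.88 in WT (adjusted p = 0.0528 by edgeR) and -3.27 ± 1.27 in KO (adjusted p = 0.0848 by edgeR). The WT difference was called with RLE factors (0.0453), upper-quartile factors (0.0468), DESeq2 (0.00607) and limma-voom (-4.31, 0.0194). The KO value rests on 1 library and was called by limma-voom (0.00357). Without KO LEC 3, which held 212 of the 216 reads, the log2 fold change was -8.37 (adjusted p = 2.66e-05 by edgeR), and without WT LEC 3, which had no read, the WT difference was -2.12 and called (adjusted p = 0.00785 by edgeR). Ajuba was not called in either genotype (-0.20 ± 1.52 in WT and -2.67 ± 1.73 in KO), but in KO it was called by limma-voom (-5.46, adjusted p = 0.0140) and without KO LEC 3 (-9.74, adjusted p = 0.00375 by edgeR). Nt5e was not fitted, with 73 reads in WT IntSCs against 1 in WT LECs, and 84 against 0 in KO.

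In all, 2 of the 8 members fitted in WT were called higher in LECs and 2 higher in IntSCs, where 10.3% and 12.3% of all 12203 genes were called in these directions. Of the 9 fitted in KO, 1 was called higher in LECs and 3 higher in IntSCs, against 9.11% and 16.8% of 12758 genes. The members had a median log2 fold change of -1.57 in WT and -3.27 in KO, beside -0.04 and -0.21 over all genes tested.

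**Figure D3:**
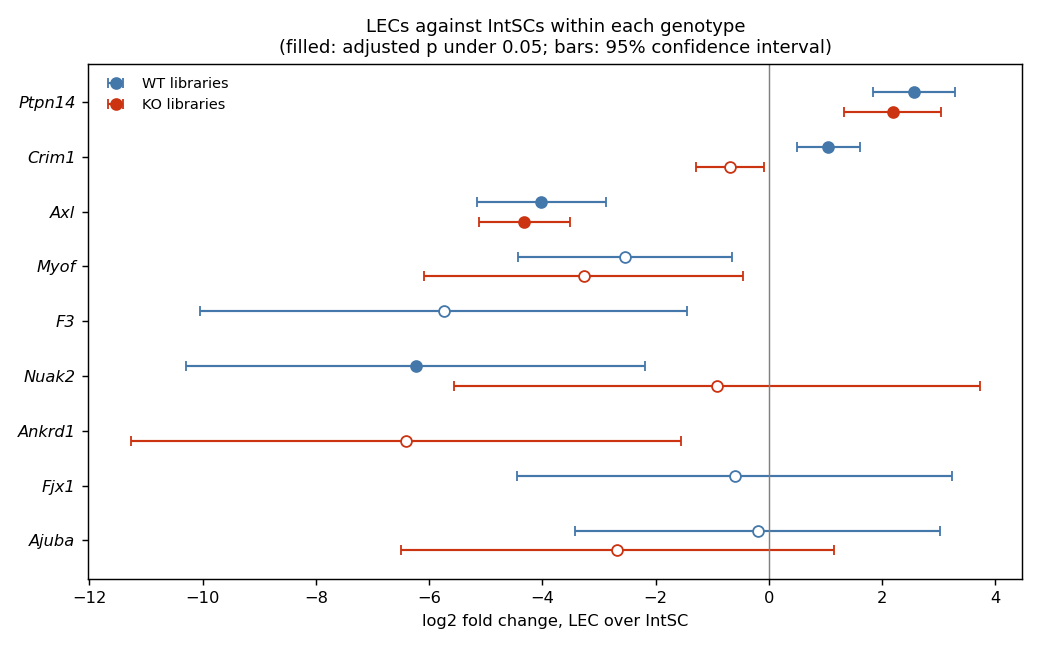
Log2 fold change of LEC over IntSC (x axis) for each member (y axis), in WT libraries in blue and KO libraries in red, with 95% confidence intervals; filled points have an adjusted p under 0.05. Ptpn14 lies to the right of 0 and Axl to the left in both genotypes, Crim1 has a different sign in each, and F3 and Fjx1 are not drawn for KO because all KO LEC libraries had no read.

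Immediate early genes, which respond quickly to cell handling and include the subunits of AP-1, differed along the same axes and are given beside these values. Their summed level (13 genes) was 6672 to 12613 CPM in WT IntSCs, 9725 to 15140 in KO IntSCs, 4044 to 4540 in WT LECs and 2014 to 2392 in KO LECs. None of the 13 was called by edgeR in IntSCs between genotypes (7 had an unadjusted p under 0.05). In the interaction, 4 of 13 had a genotype difference called larger in IntSCs, as were 1.42% of all genes. Against IntSCs, 7 of 12 fitted were called lower in WT LECs and 12 of 13 in KO LECs. Over all genes these shares were 12.3% and 16.8%. Junb was called lower in KO than in WT LECs (-1.59 ± 0.24, adjusted p = 0.0259 by edgeR). This call was lost without any 1 of the 7 libraries (adjusted p = 0.0511 to 0.204 by edgeR). The part of the immediate early genes in the member values was not tested.

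The other genes of the pathway were read from lists that hold none of the 10 members. Among 15 other YAP/TAZ targets, all fitted in IntSCs, 1 was called higher and 0 lower in KO, where 0.853% of all genes were called higher. The values of this list had a median of 0.52 on the log2 scale, and 11 of 15 were above 0, as were 50.2% of all values. The list holds Lats2, which was itself targeted in these cells, at 0.65. The called gene was Amotl2, an angiomotin that binds YAP, which rose from 45.5 ± 18.04 to 193 ± 29.7 CPM (4.25-fold, log2 fold change 2.09 ± 0.24, adjusted p = 8.98e-05 by edgeR). Ctgf, a matricellular CCN protein, went from 135 ± 85.3 to 813 ± 471 CPM without passing the test (2.59 ± 0.57, adjusted p = 0.0528 by edgeR). Cyr61, its relative, had a value of 1.34 ± 0.38 (adjusted p = 0.118 by edgeR), and Amotl1 had -0.59 ± 0.16 (adjusted p = 0.0778 by edgeR).

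In LECs edgeR called 0 of the 14 fitted targets, with 1 at an unadjusted p under 0.05. Their median was -0.51, and 4 of 14 were above 0, as were 48.3% of all values. Ctgf averaged 353 ± 199 CPM in WT and 51.6 ± 17.9 CPM in KO LECs (log2 fold change -2.69 ± 0.51, adjusted p = 0.0796 by edgeR). Its genotype difference was larger in IntSCs by 5.36 ± 0.95 log2 units (adjusted p = 0.00750 by edgeR). Ctgf was the 1 gene of this list called in the interaction, where 1.42% of all genes were called in that direction.

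**Figure D4:**
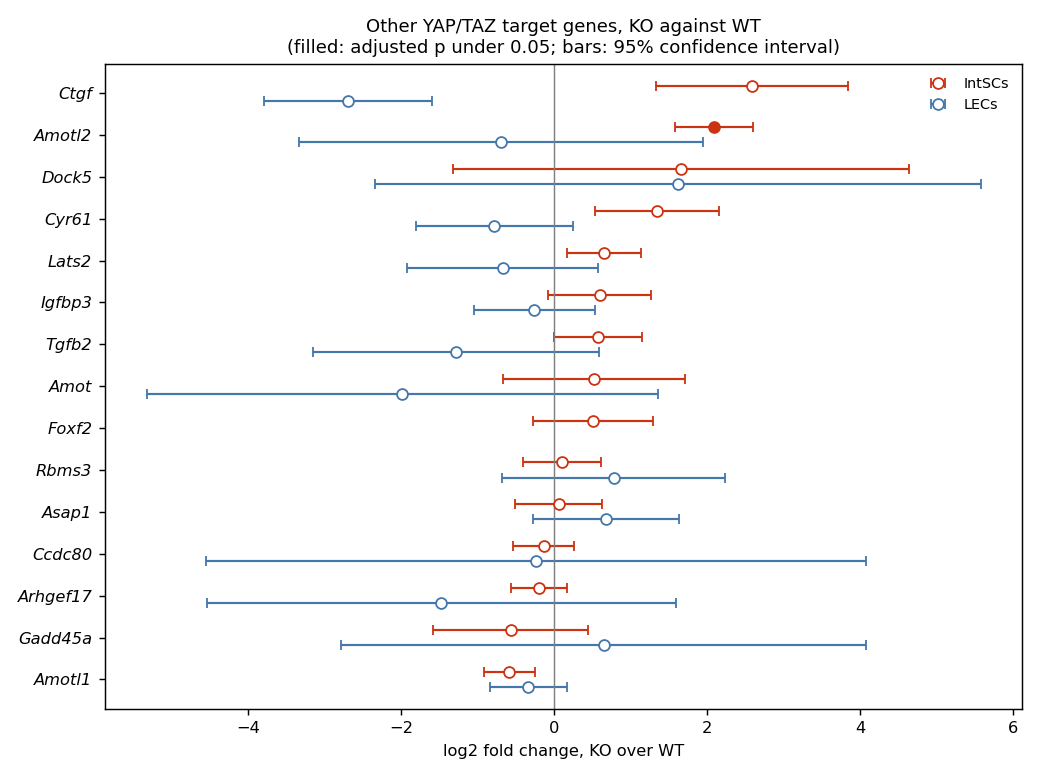
Log2 fold change of KO over WT (x axis) for 15 other YAP/TAZ targets (y axis, ordered by the IntSC value), in IntSCs in red and LECs in blue, with 95% confidence intervals; filled points have an adjusted p under 0.05. Amotl2 in IntSCs is the one filled point, and Ctgf lies near 2.59 in IntSCs and -2.69 in LECs.

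Of 22 Hippo pathway genes and TEAD factors, 20 were fitted in IntSCs. In KO, 2 were called higher and 0 lower, where 0.853% of all genes were called higher. Frmd6, a FERM protein upstream of the kinases, rose from 83.0 ± 29.1 to 197 ± 48.4 CPM (log2 fold change 1.25 ± 0.25, adjusted p = 0.00910 by edgeR). Wtip, a LIM protein related to Ajuba, rose from 163 ± 43.2 to 305 ± 50.3 CPM (0.90 ± 0.20, adjusted p = 0.0229 by edgeR), a call lost without WT IntSC 1, 2 or 5 or KO IntSC 2 or 3 (adjusted p up to 0.0804). The calls of Amotl2 and Frmd6 held without any 1 of the 11 libraries. The median of this list was 0.19. In LECs edgeR called 0 of 18, with 0 at an unadjusted p under 0.05 and a median of 0.02.

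Among 26 paralogs and binding partners of the members, 22 were fitted in IntSCs. Wtip was the one called, where 0.853% of all genes were called higher. The median was 0.39, and 17 of 22 values were above 0, as were 50.2% of all values. Among partners of Axl, Tyro3, a sister receptor, had -0.89 ± 0.37 (adjusted p = 0.374 by edgeR). Among ligands held by Crim1, Bmp7 had -0.83 ± 0.30 (adjusted p = 0.267 by edgeR) in IntSCs, and Bmp4 had -2.34 ± 0.97 (adjusted p = 0.542 by edgeR) in LECs. In LECs edgeR called 0 of 16, with 3 at an unadjusted p under 0.05, and the median was -0.84.

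The genes with the pattern most like each member were listed by Pearson's r of log2(CPM + 1), as a description across libraries that share cell type and genotype. Over all 18 libraries and 10737 genes with a mean of at least 5 CPM, Axl was most like Tpm1 (r = 0.980), Efs (0.976) and Loxl1 (0.974). Ptpn14 was most like Gramd1a (0.930), H2-DMb1 (0.921) and Fmnl3 (0.918), and Myof most like Hrct1 (0.960), Ereg (0.942) and Ablim1 (0.932). Ajuba was most like Npc1 (0.849), Il6st (0.814) and Llgl2 (0.810). Crim1 had the lowest leading values, with Col4a3bp (0.748), Tsc22d3 (0.738) and Tinagl1 (0.722). The high values of Axl, Ptpn14 and Myof go with their difference between the cell types.

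Within the 11 IntSC libraries, where 10574 genes were compared, Crim1 was most like Ppap2b (0.933), Defa21 (0.925) and Wash1 (0.922). Defa21 is an antimicrobial peptide gene of Paneth cells, the cells whose markers were higher in KO IntSC libraries. Ajuba was most like Fbxl19 (0.925), Nr2f2 (0.916) and Isyna1 (0.907), and Ptpn14 most like Ilf2 (0.933), Nr2f6 (0.912) and Jak1 (0.909). F3 was most like Fstl1 (0.953), Ppp1r2 (0.903) and Hax1 (0.898), and Myof most like Fbrsl1 (0.899), Csnk1d (0.881) and Npr3 (0.843). The leading genes for Axl were Gm17757 and Gm18853, at the same r of 0.862, and Cryl1 (0.837). Gm17757 and Gm18853 also had the same mean of 10.7 CPM, and whether they hold the same reads was not tested.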

How the data were processed

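Per the labels, libraries were made from Trizol RNA with the QuantSeq 3′ kit and sequenced on an Illumina NextSeq. Reads were mapped to mm10 with TopHat per the study's methods, while the submitters' processing notes name Bowtie2 and edgeR; the counting program, annotation and strand setting are not given in the sources used here. The files deposited by the authors hold raw counts, 23282 rows in each of 18 tables; 35 symbols on more than 1 row, none of them a member, were summed. Counts were tested per comparison with edgeR 4.0.16 (filterByExpr, TMM, quasi-likelihood F test, Benjamini-Hochberg over all genes, threshold 0.05) in R 4.3.3, and sparse members by exact permutation. The p-values compare libraries whose mice are not named. CPM were scaled with TMM factors over all 18 libraries, while fold changes come from each comparison's own fit. The ribosomal gene Rn45s held 7.02% to 24.4% of counts per library. Named were all 10 members in every comparison, listed pathway genes called or with the smallest p, and the 3 most similar genes per member with a mean of at least 5 CPM. Members and lists were chosen with earlier results of these data known. Alternatives were other scaling (RLE, upper quartile, without Rn45s), other filters, DESeq2 1.42.0, limma-voom (limma 3.58.1), a replicate block, 1 fit of all 4 groups, Xist as a covariate and leaving out each library. Deviations of same-numbered libraries were at most weakly correlated. Scripts were tested on simulated data.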

Additional observations from a re-analysis of the deposited data

Results flagged for a closer look

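The genotype difference of Crim1 itself differed between the cell types, by 1.73 log2 units in favour of IntSCs (edgeR interaction, adjusted p = 0.0201, with all 5 KO IntSC libraries above all WT IntSC libraries and the LEC groups overlapping).

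A single library stood apart from the others of its group in 13 of the 48 sets of values examined (the 10 genes, the totals and 5 marker sums in groups of 4 to 6 libraries), where about 2.4 would do so by chance. The 48 sets include sparse counts, where 1 or 2 reads can make the whole range, so no conclusion is drawn from these 2 numbers. The measure is the gap to the nearest library as a share of the whole range. Among the members it was 0.677 for Ajuba in WT IntSC 6 (16.2 CPM against at most 5.48), 0.807 for F3 in KO IntSC 3 (23.2 against at most 6.02), 0.670 for Nt5e in WT IntSC 3 (6.78 against at most 2.24) and 0.951 for Fjx1 in WT LEC 1 (9.995 against at most 0.494). It was 1 for F3 and Nuak2 in WT LEC 3 and for Nt5e in WT LEC 4, where the whole range comes from 1 or 2 reads.

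The stromal marker sum of WT LEC 1 gave 0.851 (2419 CPM against at most 1216). The LEC marker sum gave 0.807 for WT IntSC 3 (87.8 CPM against at most 27.6) and 0.765 for KO IntSC 4 (74.2 against at most 28.7). In WT IntSC 6 the Paneth cell sum gave 0.666 (31.6 CPM against at most 10.7) and the epithelial sum 0.764 (114 against at most 27.2). The total count of WT LEC 2 gave 0.943, at 7464241 reads against at least 10374749. What set these libraries apart was not tested.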

How the results depend on the processing

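The calls of Crim1 between genotypes in IntSCs (log2 fold change 1.41 to 1.62), of Axl in both cell type comparisons and of Ptpn14 in the WT one held under all alternatives run. Of the 819 recomputed fold changes of members, 749 kept their sign and side of the threshold, 17 lost a call, 21 gained one and 32 changed sign, and no alternative scaling turned the sign of a member. All 40 mean CPM moved by less than 1 SD on plain library sizes. The cause of these shifts was not tested. Several LEC values rest on 1 library.

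Correlations of deviations between same-numbered libraries ran from -0.06 to 0.06. For WT LECs and WT IntSCs all 4 such pairs were weakly positive (0.019 to 0.041, mean 0.029 against -0.006 for other pairs). The labels do not say whether same-numbered libraries share a mouse, so the replicate block rests on shared numbers only. With it the Crim1 interaction had an adjusted p of 0.413 (1.63 log2 units), its WT cell type difference 0.0954, the KO cell type difference of Ptpn14 0.0618 and those of F3 and Fjx1 0.203, and the WT one of Nuak2 0.178 (edgeR). The counts of called genes became 3 for LEC KO against WT, 1596 and 895 for the WT and KO cell type comparisons and 16 for the interaction. Signs turned for Nt5e (-1.09), Fjx1 (0.72) and Nuak2 (-0.046) in IntSCs, for Axl in LECs (0.40), and for Nt5e (-0.19) and Nuak2 (0.78) in the interaction.

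For IntSC KO against WT, 183 genes were called in the report's fit, 376 by DESeq2, 27 with all 4 groups in 1 fit and 99 to 186 with 1 library left out. For LECs, 7 became 32 without a filter, 20 with a mean count of at least 10, 309 by DESeq2, 12 by limma-voom, 538 with all 4 groups, 11 with Xist as a covariate and 0 to 16 with 1 library left out (edgeR, 0 without WT LEC 3, where 594 genes had an unadjusted p under 0.05). The interaction count of 238 became 1023 by DESeq2, 143 by limma-voom and 161 to 461 with 1 library left out.

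With limma-voom the sign turned for Nt5e (-0.13) and Fjx1 (0.12) in IntSCs, Axl in LECs (0.18) and Axl in the interaction (-0.063), and with Xist for Fjx1 in IntSCs (0.27) and Myof in LECs (0.62). With 1 library left out, values in IntSCs ran from -0.0077 to 0.073 for Axl, -0.66 to 0.40 for Fjx1 and -0.58 to 0.78 for Nt5e. In LECs they ran from -0.52 to 0.75 for Axl, -5.40 to 0.26 for Myof, -1.54 to -0.59 for Ptpn14 and -0.51 to 0.075 for Crim1. Those of Ajuba in the WT cell type comparison ran from -1.24 to 0.79, and in the interaction those of Axl from -0.64 to 0.63 and of Nuak2 from -6.64 to 2.07. Differences in mean log2(CPM + 1) ran from 1.38 to 2.26 for Ankrd1 in IntSCs, from -0.074 to 0.020 for Ankrd1 in LECs and from -0.032 to 1.56 for Nuak2 in LECs. Leaving out each library for the named genes of the lists was chosen after seeing the data. Calls were also lost for Nuak2 in WT (adjusted p = 0.0767 by edgeR) and Fjx1 in KO (0.0649) without a filter, and for Fjx1 with a mean count of at least 10 (0.0561) or all 4 groups (0.0579).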

Other observations

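Some relatives and partners of the members were called between LECs and IntSCs. Dysf, the ferlin next to Myof in sequence family, was higher in LECs in both genotypes (log2 fold change 4.68 in WT, adjusted p = 9.41e-07, and 3.49 in KO, adjusted p = 4.59e-04, by edgeR), while the values of Myof were negative in both. Among TAM receptors, Tyro3 was lower in LECs, as Axl was (-4.18 in WT, adjusted p = 0.0288, and -7.77 in KO, adjusted p = 0.00149, by edgeR, the WT call being lost without WT LEC 2 or WT IntSC 3, at 0.0708 and 0.0548), and Mertk had no read in LECs. Their ligands Gas6 and Pros1 were higher in WT LECs (1.53 and 1.04, adjusted p = 0.00833 and 0.00430 by edgeR), while in KO neither was called (-0.36 for Gas6 and 0.41 for Pros1, adjusted p = 0.390 and 0.183 by edgeR). Around Nt5e, the ectonucleotidase Entpd2 was lower in LECs (-3.26 in WT, adjusted p = 1.29e-05 by edgeR) and the adenosine receptor Adora2a was higher (3.83 in WT, adjusted p = 9.68e-04 by edgeR). The BMP ligands that Crim1 can bind, Bmp4 and Bmp7, were both lower in WT LECs (-2.74 and -2.22, adjusted p = 0.00137 and 0.0163 by edgeR). Of the paralogs and partners, 4 of 22 fitted were called higher in WT LECs and 6 lower, where 10.3% and 12.3% of all 12203 genes were, with a median of -0.78. In KO LECs 2 of 22 fitted were called higher and 9 lower, with a median of -3.75. Of all 12758 genes tested there, 9.11% and 16.8% were called in these directions.

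Among the marker lists, Lyz1 and Defa24 of Paneth cells rose in KO IntSCs (log2 fold change 6.44 and 5.59, adjusted p = 5.80e-04 and 1.50e-04 by edgeR), against 0.853% of all genes called higher there. The collagen Col3a1 was called lower (-0.92, adjusted p = 0.0438 by edgeR), a call that held without 1 library in 3 of 11 cases. Of the 5 pericyte markers Kcnj8 was called lower (-1.41, adjusted p = 0.0472 by edgeR, held in 2 of 11 cases), but Notch3 had 0.75 (unadjusted p = 0.00489), the pericyte sums overlapped (268 to 512 CPM in WT and 251 to 516 CPM in KO), and Kcnj8 was higher in LECs than in IntSCs (1.55 in WT and 2.56 in KO, adjusted p = 0.00333 and 0.00363 by edgeR). None of the LEC, smooth muscle or epithelial markers fitted was called by edgeR between genotypes in either cell type (in IntSCs 0 of 5, 2 of 6 and 1 of 5 had an unadjusted p under 0.05, and in LECs 1 of 6, 0 of 5 and 1 of 2).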
